A study of Rattus norvegicus with 18 samples.

Results

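The bacterial communities of a treated group of rats, labelled TG, were compared with those of rats with induced radiation enteritis, labelled model. Libraries were chosen by their group label alone, 6 TG and 6 model, which are 12 of the 18 samples of the series. The remaining 6 came from untreated control rats, and their values stand beside the others as a reference level. All rats were wild-type Rattus norvegicus. The labels call the material intestinal contents and, elsewhere, stool, and amplified 16S rRNA genes were sequenced from it.

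Model rats carried the induced enteritis. TG rats received a therapeutic intervention, which the group label names as TCM treatment. The sources used here give neither what TG stands for nor its dose and timing, nor the strain, sex and age of the rats. The labels do not state separately that TG rats were irradiated, though the design text speaks of treatment after disease induction. All libraries carry 1 batch label. The replicates are called biological, but no animal is named per sample, so p-values measure the spread between these samples.

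Radiation enteritis is an injury of the gut lining by ionising radiation, which damages the dividing cells of the crypts. The gut lining and its bacteria affect each other through mucus, oxygen, bile acids and immune factors, and disturbed communities are often described by how unevenly a few bacteria fill them. The 16S rRNA gene is present in all bacteria and its variable stretches differ between them. Bacterial genomes can hold several copies of the gene, so the number of sequence features need not equal the number of organisms. A share is relative: a lower share of some features and a higher share of all others cannot be told apart.

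Each feature is a sequence kept by the authors' denoising and clustering, and none has a taxon here, because the count and taxonomy tables share no identifiers. Features are therefore named by their abundance rank over the 18 libraries, feature 1 being the most abundant. Totals ranged from 30958 to 33342 counts in model and from 23894 to 40575 in TG. A count of 0 in a single library allows a share of up to 0.00739% in the deepest TG library and 0.0126% in the shallowest, by counting error only.

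Before any comparison, 3 libraries stood apart by their number of features. At an equal depth of 23894 counts, model 1 had 273 features, model 3 had 195 and TG 5 had 271, while the other model libraries had 695 to 956 and the other TG libraries 839 to 1068. The low ones therefore occurred in both groups. Model 3 and TG 5 were also the closest of all pairs among the 12 libraries, with a Bray-Curtis distance of 0.403, although they carry different group labels. Their counts still differed far beyond sampling noise, with a chi-square of 86.7 per degree of freedom, so they are not 1 library deposited in both groups. Results below are also given without these 3 libraries where that ends a call.

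TG communities were less dominated by a few features than model communities. Berger-Parker dominance, the share of the single most abundant feature, was 2.06% at the lowest, 3.72% at the median and 5.49% at the highest in TG. In model these values were 4.33%, 6.11% and 9.58%. TG 1 to TG 5 all lay below the lowest model library, while TG 6, at 5.49%, lay among the model libraries. The mean was 3.59% ± 1.27 (SD, n = 6) in TG and 6.64% ± 2.06 (SD, n = 6) in model. This difference of -3.05 percentage points passed the exact two-sided permutation test over the 924 assignments of 12 libraries (p = 0.0108, adjusted p = 0.0271 over the 5 measures of dominance and evenness).

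The 10 most abundant features of each library held less of TG than of model. They covered 15.3% to 35.6% of counts in TG, with a median of 23.1%, and 27.7% to 58.9% in model, with a median of 37.1%. TG 1 to TG 4 lay below every model library, and TG 5 and TG 6 lay inside the model range. The means were 24.3% ± 8.02 and 41.7% ± 13.4 (SD, n = 6 each), a difference of -17.5 percentage points (exact permutation p = 0.0152, adjusted p = 0.0271). In control the same measure was 49.7% to 65.4%, above all TG libraries.

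Counting from the top shows the same in numbers of features. In TG, 50% of counts were reached with 16 to 86 features (52.2 ± 25.2, SD, n = 6), and in model with 8 to 45 (22.5 ± 14.01, SD, n = 6). TG 1, TG 2 and TG 4, with 70, 86 and 61 features, lay above the highest model library. The difference of 29.7 features passed the exact permutation test (p and adjusted p both 0.0368). To reach 90% of counts, TG 5 needed 69 features and the other TG libraries 309 to 403, while model 1 and model 3 needed 40 each and the other model libraries 230 to 355. The low values are those of the 3 libraries with few features.

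**Figure D1:**
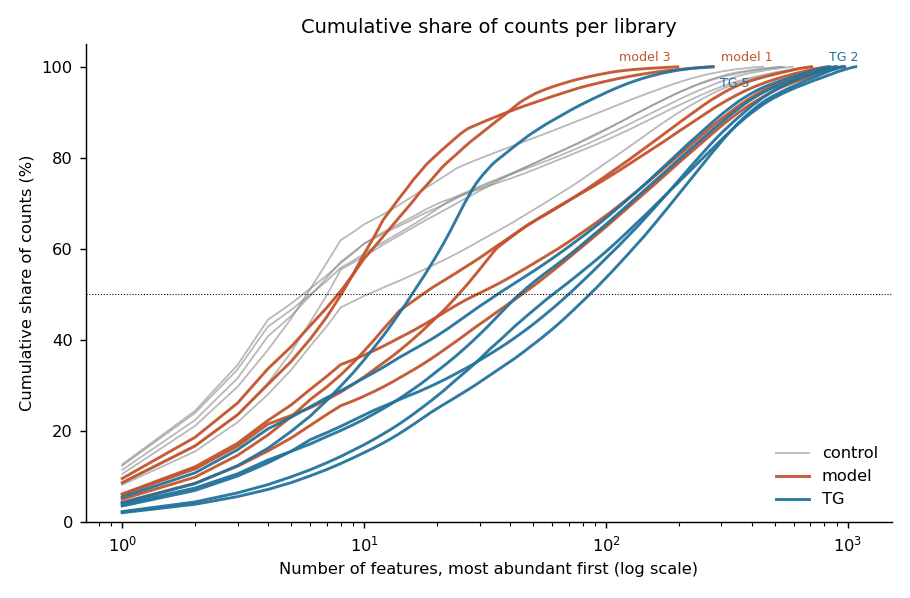
Cumulative share of counts (%) against the number of features, most abundant first, on a log axis, with 1 curve per library for 6 control (grey), 6 model (orange) and 6 TG (blue) libraries. Most TG curves run below the model curves at the left; model 1, model 3 and TG 5 end early, with 278, 198 and 276 features in their full counts.

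Evenness was higher in TG. The Pielou index, which is 1 when all features are equally abundant, was 0.759 to 0.865 in TG with a median of 0.826, and 0.654 to 0.806 in model with a median of 0.758. The means of 0.819 ± 0.0383 and 0.741 ± 0.0560 (SD, n = 6 each) differed (adjusted p = 0.0271, exact permutation p = 0.0195). The inverse Simpson index, read as a number of equally abundant features, was 45.6 to 200 in TG and up to 89.3 in model. Its mean was 118 ± 57.7 in TG and 50.3 ± 24.8 in model (SD, n = 6 each; adjusted p = 0.0271, exact permutation p = 0.0216). For both indices TG 1 to TG 4 lay above every model library, and TG 5 and TG 6 lay inside the model range. Control was the least even group, at 0.631 to 0.712 for Pielou and 17.9 to 32.4 for inverse Simpson.

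These 5 calls depended on single libraries. Without any 1 of TG 1, TG 2, TG 4, model 1 or model 3, all 5 measures kept their direction and none passed, with adjusted p between 0.0514 and 0.0671. The number of features for 50% of counts also did not pass without model 5 or model 6 (adjusted p = 0.0519 and 0.0584, exact permutation test). Without model 1, model 3 and TG 5 together, the differences were -1.93 percentage points for the leading feature, -11.4 for the leading 10, 29.9 features for 50% of counts, 0.0568 for Pielou and 68.1 for inverse Simpson. With the 9 libraries left, these had adjusted p of 0.0635 for the first and 0.0595 for the others by the exact permutation test.

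**Figure D2:**
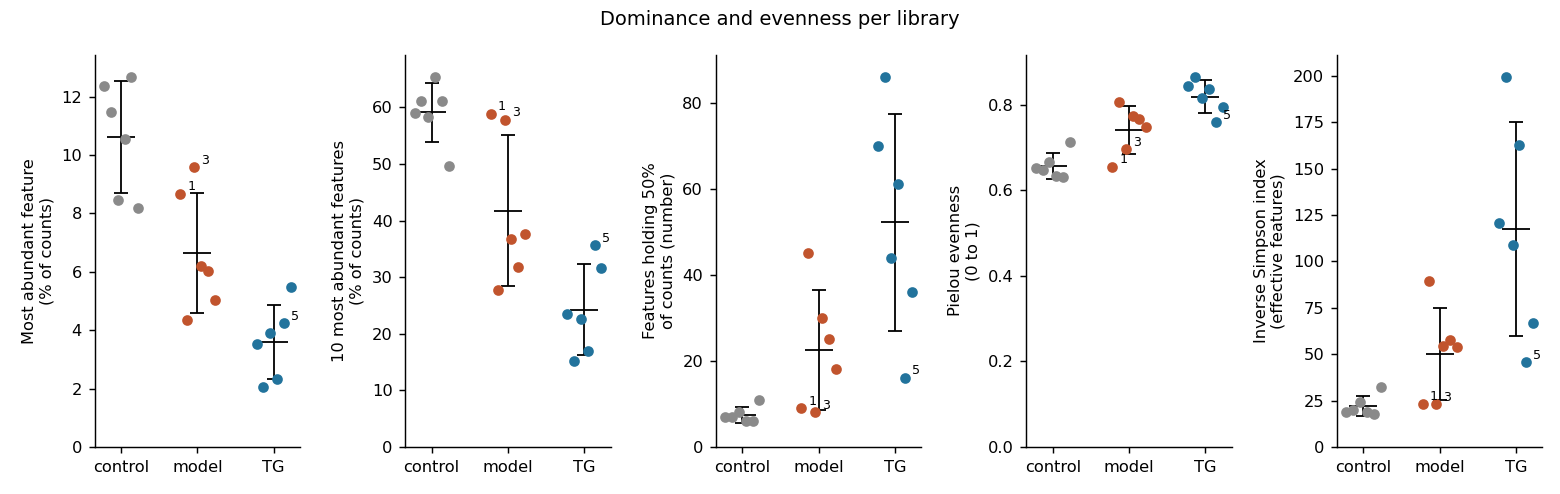
Share of the most abundant feature and of the 10 most abundant (% of counts), number of features holding 50% of counts, Pielou evenness and inverse Simpson index, each point 1 of 6 libraries per group, with the mean and SD as bars. Model 1, model 3 and TG 5 are numbered; the mean of the leading feature falls from 6.64% in model to 3.59% in TG.

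Which feature led a library also varied. In model the leader was feature 1 in model 3 and model 4, feature 2 in model 2 and model 6, feature 23 in model 1 and feature 13 in model 5. In TG it was feature 4 in TG 1, TG 3 and TG 4, feature 3 in TG 5, feature 13 in TG 6 and feature 42 in TG 2. Neither feature 1 nor feature 2 led a TG library. Over the 12 libraries the lists of the 10 most abundant features held 41 different features, 28 in TG and 28 in model with 15 in both, and 19 of the 41 were listed in 1 library alone. Any pair of TG libraries shared 4.27 of 10 listed features on average and any pair of model libraries 4.47, against 8.87 for pairs of control libraries. A TG and a model library shared 3.89.

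Several leading features varied together. Relative to feature 1, the median in model was 0.996 for feature 2, 0.840 for feature 5 and 0.798 for feature 6, and in TG it was 0.938, 0.785 and 0.723. In model these ratios ran from 0.916 to 1.05, 0.787 to 0.994 and 0.784 to 0.807. In TG they ran more widely, from 0.760 to 1.24, 0.638 to 1.07 and 0.611 to 1.18. There 4 libraries had only 95 to 106 counts of feature 1. For feature 2, however, the lowest TG ratio came from TG 3, with 500 counts of feature 1. TG 5, with 1367 counts, was at 1.11 for feature 2, above the model range. Feature 7 was 0.740 to 0.867 of feature 3 in model and 0.713 to 0.929 in TG. Features whose square-root shares correlated at 0.9 or more over the 12 libraries were therefore joined into 262 profile sets, 94 of which had more than 1 feature. Whether a set comes from 1 organism was not tested.

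Seen by these sets, most model libraries had the same leading set and most TG libraries had another. Set 1, made of features 1, 2, 5, 6, 21, 22, 35, 47 and 48, led in model 2, 3, 4 and 6 with 17.9%, 38.5%, 25.6% and 19.4% of counts. Set 2, made of features 3, 4, 7 and 8, led in TG 1, 3, 4 and 5 with 13.01%, 13.6%, 7.85% and 14.98%. Set 2 was not higher in TG, as it averaged 9.76% in TG, 11.8% in model and 24.8% in control. It also led control 1 and control 6. Set 1 averaged 4.08% in TG and 19.3% in model. Model 1 was led by set 5 (features 23, 24, 27, 29 and 3 others) at 32.5%, a set that held 0.110% to 3.07% of the other model libraries and 0.452% to 3.37% of TG. Set 3, features 13, 14, 19 and 20 with 4 others, led 1 library in each group: model 5 with 24.5% and TG 6 with 23.6%. Those 2 libraries were each other's nearest neighbour by Bray-Curtis distance (0.496).

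With sets in place of features, the leading set held 13.3% ± 6.02 of counts in TG and 26.4% ± 7.85 in model (SD, n = 6 each; adjusted p = 0.0433, exact permutation test). Inverse Simpson over sets was 35.0 ± 21.3 in TG and 11.7 ± 5.71 in model (adjusted p = 0.0433). The share of the 10 leading sets was 46.1% in TG and 66.2% in model and did not pass (adjusted p = 0.0931). The choice to join features was made after the values were seen.

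Among single features, edgeR's quasi-likelihood test called 6 of the 431 features that passed a filter on low counts, which is 1.39% of those tested, and all 6 were lower in TG. By the same test 44 features had an unadjusted p under 0.05, 13 of them higher in TG. The 6 are features 1, 2, 5, 6, 21 and 22, all of set 1, so they are not 6 independent changes. The median log2 fold change over all 431 features was 0.27.

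Feature 1 held 0.372% to 3.37% of counts in TG, with a median of 0.398%, and 0.996% to 9.58% in model, with a median of 4.50%. In TG, 4 libraries lay between 0.372% and 0.399%, TG 3 was at 1.597% and TG 5 at 3.37%, so only those 2 overlapped the model range. Its log2 fold change was -1.96 (SE 0.54, edgeR adjusted p = 0.0384). In control it held 3.37% to 12.7%. Features 2, 5 and 6 had log2 fold changes of -1.95, -2.02 and -2.05 at the same adjusted p by edgeR.

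Features 21 and 22 separated the groups without overlap. Feature 21 (identifier 59c5bd27fd9beada774d5dc518d24534) held 0.213% to 1.42% of counts in model, 0.126% in TG 5 and had no count in the other TG libraries. Feature 22 (identifier e015e4859d274a987c4704d5a258608d) held 0.207% to 1.40% in model, 0.138% in TG 5 and again had no count in the other TG libraries. All 6 control libraries held both, at means of 1.49% ± 0.661 and 1.45% ± 0.586 (SD, n = 6 each). The log2 fold changes were -4.74 (SE 1.17) and -4.61 (SE 1.18), each with an edgeR adjusted p of 0.0195. Without TG 5 the fitted values were -10.50 for both (edgeR adjusted p = 5.23e-08), but TG then had no count, so these depend on the prior count and are no bound. With a replicate block they were -8.49 and -8.48. Both features lost the call without TG 1 or TG 6 (edgeR adjusted p = 0.111 and 0.0530), and also without model 4. With the 431 features kept fixed they lost it without TG 2 or TG 4 too. Every TG library was below every model library for 4 of the 431 tested features (0.928%), the other 2 being features 317 and 325, which were named after their values were seen; the opposite held for 1 feature (0.232%).

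The log2 fold changes of features 21 and 22 were larger than those of features 1, 2, 5 and 6 of the same set, which can be read within each library as a ratio. Relative to feature 1, feature 21 stood at 0.0902 to 0.214 in the 6 model libraries and 0.160 to 0.188 in the 6 control libraries. In TG 3, which had 500 counts of feature 1, feature 21 had 0 counts, which allows a ratio of up to 0.006. Model 5 had fewer counts of feature 1, 318, and yet 68 of feature 21. The other TG libraries without feature 21 had 95 to 106 counts of feature 1, which allows ratios up to 0.0316. In TG 5 the ratio was 0.0373, from 51 and 1367 counts. All 6 TG ratios or their upper limits thus lay below the lowest model ratio. Features 21 and 22 were called for being lower in TG in these same libraries. Low ratios in TG were therefore likely from their choice, and these values are a description. Feature 22 gave 0.0827 to 0.208 in model and 0.0410 in TG 5. Feature 47 of the same set differed in TG 5 alone: its ratio there, 0.0753, lay above the model libraries, where it was 0.0522 to 0.0669 in 5 libraries and 0 in model 5. The other TG libraries had 0 counts of feature 47, with the same upper limits as for feature 21. Those limits, 0.006 in TG 3 and up to 0.0316 elsewhere, lay below the 5 model ratios above 0. Feature 47 was named for being scarce in TG, so this too is a description.

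Together the 6 called features held 1.20% to 12.7% of counts in TG and 4.24% to 36.5% in model, with TG 5 the highest in TG and model 5 the lowest in model. With these 6 removed and shares recomputed, the difference was -2.49 percentage points for the leading feature, against -3.05 with them, and -13.1 for the leading 10, against -17.5. The leading 10 then held 25.05% in TG and 38.1% in model. The 6 were chosen for being lower in TG in these same libraries, so their removal was bound to lessen the differences, and these values are a description. The edgeR calls themselves depend on settings: with RLE in place of TMM factors there were 0 calls (all 6 with adjusted p = 0.132), and DESeq2 called features 21 and 22 alone. RLE factors moved the median log2 fold change of all features from 0.27 to 0.78, and feature 1 then stood at -1.73. Leaving out 1 library gave 0 to 7 calls, with 0 without TG 1, TG 6 or model 4. With the 431 features kept fixed there were 0 without TG 2 or TG 4 too. A fit on TG and model alone called 4 of the 324 features its own filter kept, features 1, 2, 5 and 6, and features 21 and 22 did not pass (edgeR adjusted p = 0.148 and 0.150). That fit called 0 of the 431.

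No feature called over all libraries was higher in TG, but 4 features recurred in TG and were scarce in model. Without model 1, model 3 and TG 5, edgeR called 8 of 405 features, the same 6 among them, 7 lower and 1 higher in TG. The higher one, feature 76, was named after its values were seen (log2 fold change 8.48, edgeR adjusted p = 0.0223). It was present in TG 3 and TG 6 alone among TG, at up to 0.686% of counts, in model 1 alone among model at 0.0774%, and in 3 control libraries at up to 1.36%. As model 1 was left out of this fit, the fitted model libraries had no count of feature 76. Its fold change thus depends on the prior count and is no bound. Recurrent means present in at least 5 of the 6 libraries of a group, and scarce means present in at most 1. Feature 110 (identifier f2505cd832563121618565b3dfcc6881) was present in all TG libraries at 0.160% to 0.354%, in model 5 alone among model at 0.122%, and had no count in control. It is the 1 tested feature with every TG library above every model library, and its log2 fold change of 3.26 (SE 2.34) did not pass (edgeR adjusted p = 1). Feature 367 was present in TG 1, 2, 3, 5 and 6 at 0.0514% to 0.137% and had no count in any model or control library (edgeR adjusted p = 0.153).

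Features 194 and 204 were each present in 5 TG libraries and 1 model library. Feature 194 reached 0.188% in TG 6, yet its 1 model library, model 5, held 0.448%, so its mean was 0.0873% in TG and 0.0746% in model. Feature 204 held 0.0958% to 0.318% in 5 TG libraries and 0.102% in model 4. In the other direction, features 21, 22 and 47 recurred in model and were present in TG 5 alone among TG. The difference of 4 against 3 such features at equal depth did not pass (adjusted p = 0.864 over the 4 prevalence measures, exact permutation test). With 1 library left out, groups were read at 5 libraries and presence in 4 counted as recurrent. By that looser rule the difference ran from 4 without model 1 to 19.4 without TG 5. Without model 1, model 3 and TG 5, groups were read at 4 libraries and presence in 3 counted as recurrent, and it was 10.7. These values are not the same measure as the difference of 1 feature, so they do not show how far single libraries moved it.

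**Figure D3:**
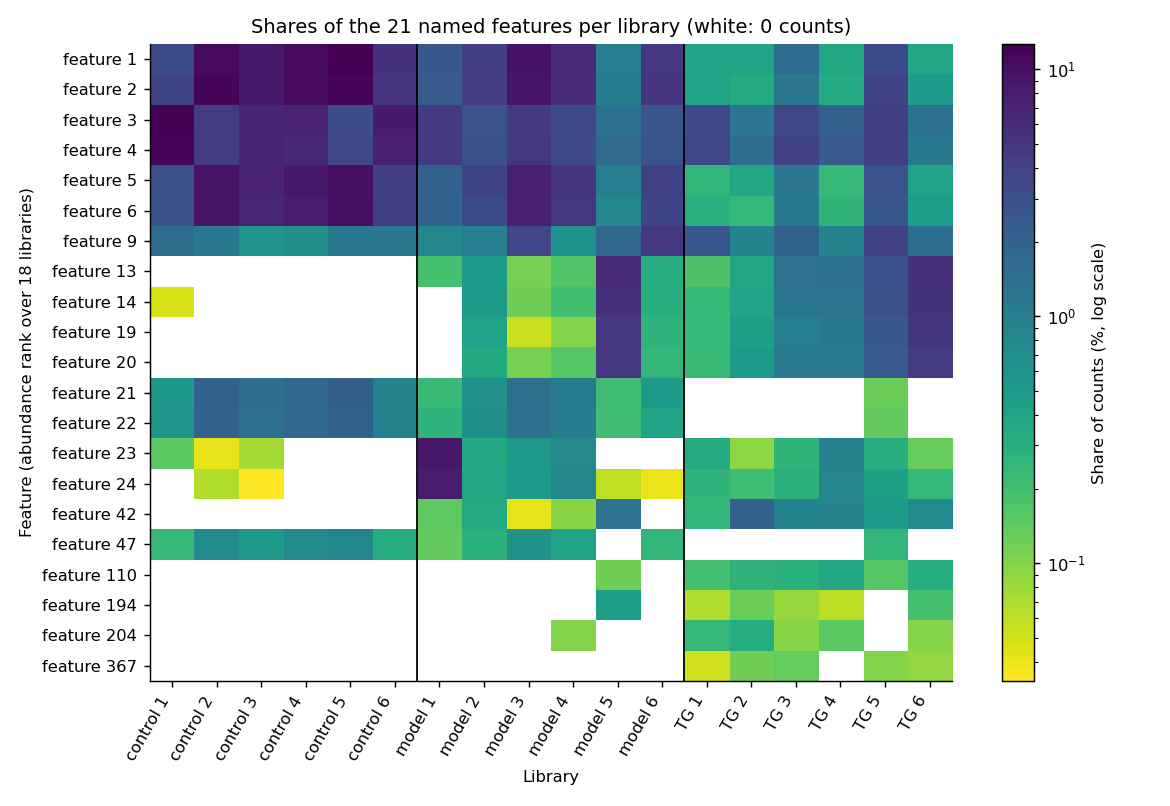
Share of counts (%, log colour scale, white for 0 counts) of the 21 named features in the 6 control, 6 model and 6 TG libraries, split by vertical lines. Features 21, 22 and 47 are white in all TG libraries except TG 5, and feature 110 is present in all 6 TG libraries and in model 5.

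Among other leading features, features 13 and 23 varied more among the libraries of a group than between the groups. Feature 13, the leader of model 5 (6.03%) and TG 6 (5.49%), had a median of 0.250% in model and 1.36% in TG and no count in control. Its mean difference of 0.721 percentage points was 0.0105 with TG 6 left out and 1.68 with model 5 left out. Feature 23 held 8.67% of model 1, 0.349% to 0.783% of 3 other model libraries, none of model 5 and model 6, and 0.0921% to 0.950% of TG. Feature 42, the leader of TG 2 at 2.06%, was present in all TG libraries from 0.257% and had no count in control; 5 TG libraries lay above the second highest model library, which was at 0.336%. Its means of 0.892% ± 0.626 and 0.323% ± 0.501 (SD, n = 6 each) gave no edgeR call (log2 fold change 1.16, SE 1.30, adjusted p = 1).

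Feature 9 and feature 3 showed no called difference either. Feature 9 held 0.866% to 3.95% of TG and 0.604% to 4.84% of model, and feature 3 held 1.24% to 4.23% of TG and 1.46% to 4.77% of model (edgeR adjusted p = 1 for each). In control feature 3 ran from 3.29% to 12.4%.

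Prevalence was dominated by features of a single library. The 12 libraries held 6229 features, and 5415 of them (86.9%) were seen in 1 library only. TG had 3859 features and model 3019, with 649 in both, which is 16.8% of the TG features and 21.5% of the model features. These 649 nonetheless carried 80.5% of TG counts and 88.8% of model counts. Per library they covered 69.6% to 95.3% in TG, where TG 5 was highest, and 82.8% to 98.6% in model, where model 3 was highest.

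At equal depth 52 features were present in all 6 TG libraries and 33 in all 6 model libraries (exact permutation p = 0.286, adjusted p = 0.571). The share of counts in them was 44.5% ± 19.7 in TG and 51.4% ± 19.9 in model (SD, n = 6 each; adjusted p = 0.687 by the exact permutation test). TG had 3300 features seen in 1 of its libraries and model 2516 (adjusted p = 0.571). No prevalence measure passed. With 1 library left out these differences had other values. Both groups were then read at 5 libraries, so presence throughout meant all 5. The values are thus not the same measure as those above and do not isolate the effect of a library. That of 19 in features present throughout was 9.17 without model 5 and 31.7 without TG 5. That of 784 in features of 1 library was 370 without model 3, 459 without model 1, 507 without TG 4 and 519 without TG 2. That of -6.89 percentage points in their share of counts was -17.1 without model 5, -11.3 without TG 5 and -1.02 without model 3.

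The features present throughout a group fell into 3 parts. The first, 24 features, was present in all 12 libraries, and 19 of these were in all control libraries too. These 24 held 27.1% ± 13.7 of TG counts, 48.0% ± 18.1 of model counts and 62.9% ± 4.96 of control counts (SD, n = 6 each). The second, 28 features, was present in all TG but not all model libraries and held 17.3% ± 8.50 in TG and 10.9% ± 8.28 in model (SD, n = 6 each). The last, 9 features, was present in all model but not all TG libraries and held 0.474% ± 0.299 in TG and 3.36% ± 1.92 in model (SD, n = 6 each). Presence in all libraries of a group chose the second and last parts, so their shares describe them and were not tested.

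Turnover, the exchange of features between libraries, was large in every pair and showed no excess between groups that passed. The Jaccard dissimilarity, the share of a pair's features that only 1 of the pair holds, averaged 0.904 between TG and model, 0.902 within TG and 0.907 within model at equal depth. The excess between groups was -0.000515 (exact one-sided permutation p = 0.394, adjusted p = 0.816 over the 5 turnover measures). The part due to replacement of features exceeded the within-group mean by 0.00542, the part due to one library holding a subset of the other differed from it by -0.00594, and neither passed (adjusted p = 0.816 each by the exact permutation test). Mean Bray-Curtis distances within TG and within model were 0.623 and 0.612 over 15 pairs each, a difference that did not pass (adjusted p = 0.816 by the exact permutation test).

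Bray-Curtis distance on shares adds up over features, so it can be divided by abundance class. Classes were set by the mean share over the 12 libraries regardless of group: 22 dominant features at 1% or more, 108 intermediate ones from 0.1% to 1%, 762 low ones from 0.01% to 0.1%, and 5337 rare ones below 0.01%. Across the first bound the nearest features had mean shares of 1.01% and 0.831%, across the second bound 0.101% and 0.0986%, and across the third bound 0.01001% and 0.00997%. All dominant and intermediate features occurred in both groups, while 433 of the 762 low and 86 of the 5337 rare ones did. A mean over 12 libraries can reach 1% through 1 library, as features 23 and 24 did through model 1, at 8.67% and 8.06%. Of the named dominant features, 5, 6, 23 and 24 averaged under 1% in TG, and 19 and 20 did so in model. Class shares and parts below depend on this choice. With classes set by highest share, the TG minus model difference in dominant share was -15.7 points (adjusted p = 0.222, exact permutation test).

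On average dominant features held less of the TG libraries and every other class held more, though no class difference passed over all 12 libraries. The share of dominant features was 12.6% to 55.1% in TG and 33.8% to 68.4% in model, with means of 29.7% ± 14.5 and 49.5% ± 14.2 (SD, n = 6 each). All TG libraries except TG 5 lay below the lowest model library. Intermediate features held 32.9% ± 4.82 in TG and 26.6% ± 2.39 in model (SD, n = 6 each), with the 5 libraries TG 1 to TG 5 above the highest model library at 29.7%. Low features averaged 25.7% and 15.9%, and rare features 11.7% and 8.02%.

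The exact permutation p was 0.0368 for dominant and 0.0216 for intermediate features, each with an adjusted p of 0.0736, and the adjusted p was 0.165 for low and 0.180 for rare features. Without TG 5 all 4 passed: the difference was then -24.8 percentage points for dominant features (adjusted p = 0.0173), and 5.99, 13.4 and 5.47 points for intermediate, low and rare ones (adjusted p = 0.0368, 0.0289 and 0.0289, exact permutation test). Intermediate features also passed without TG 6, at 7.86 points (adjusted p = 0.00866, exact permutation test). Features seen in 1 of the 18 libraries were also left out, with shares recomputed and classes set anew. The classes then had other members than those above. The rare difference, 3.69 points with all features, was then 0.0198 (adjusted p = 0.950, exact permutation test). The intermediate one was 10.2 (adjusted p = 0.0173, exact permutation test). By mean share, 3637 of all 6229 features (58.4%) were higher in TG. The count was 4 of the 22 dominant, 75 of the 108 intermediate (69.4%), 504 of the 762 low (66.1%) and 3054 of the 5337 rare features (57.2%). Of the rare ones, 5198 were seen in 1 library, 2961 of them in TG, so their count mostly restates which group held more features of 1 library. Members of a profile set share their direction, so these are not independent counts.

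**Figure D4:**
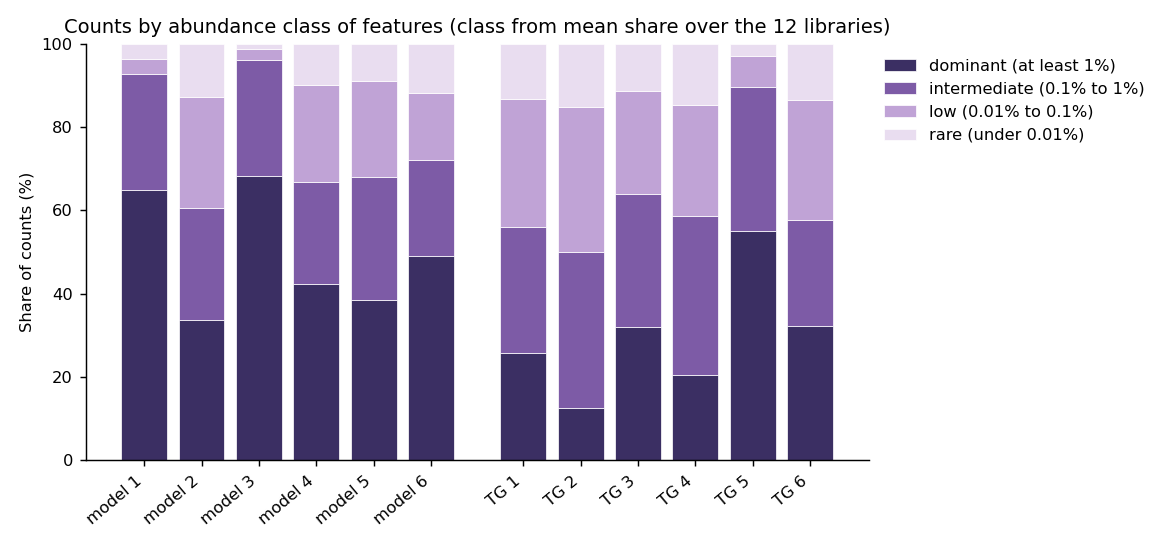
Share of counts (%) in dominant, intermediate, low and rare features as stacked bars, 1 bar for each of the 6 model and 6 TG libraries. The dominant part is 33.8% or more in every model library and below that in every TG library except TG 5, at 55.1%.

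The mean Bray-Curtis distance between a TG and a model library was 0.654, over 36 pairs. Dominant, intermediate and low features supplied 0.199 (30.4%), 0.184 (28.1%) and 0.174 (26.5%) of it, and rare features supplied the least, 0.0979 (14.97%). The contribution was spread thinly, as 69 features supplied 50% of the distance and the leading 12 supplied 21.3%. Features seen in 1 library supplied 18.7%, the 24 found in all 12 libraries 27.2% and the 790 in between 54.1%.

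Most of that distance was also present inside the groups. Within model the class parts were 0.225, 0.172, 0.136 and 0.0797 in the same order, and within TG 0.124, 0.175, 0.207 and 0.116. The largest part was thus that of dominant features among model libraries and of low features among TG libraries. The excess of the between-group distance over the mean of both within-group distances was 0.0365. Dominant features supplied 0.0241 of it (66.2%), intermediate ones 0.0104 (28.4%), low ones 0.00205 (5.62%) and rare ones -8.48e-05 (-0.233%).

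The excess did not pass for any class or for all features (exact one-sided permutation p = 0.0714 for all features and 0.0606 for dominant ones, adjusted p = 0.159 for both over 5 tests). Without model 5 it was 0.0816 for all features, 0.0526 for dominant and 0.0244 for intermediate ones, each with an adjusted p of 0.0108 by the exact permutation test. By construction a feature seen in 1 library adds nothing to the excess when groups are of equal size, which holds for 5198 of the 5337 rare features. The 24 features found in all 12 libraries supplied 0.02496 of the excess and the 790 found in some of them 0.0115.

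The 6 features called by edgeR supplied 11.6% of the between-group distance and 80.6% of the excess. They were chosen by their difference between the same libraries, so this is a description. Without them, and with shares recomputed, the excess was 0.00868, a fall that their choice made likely.

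**Figure D5:**
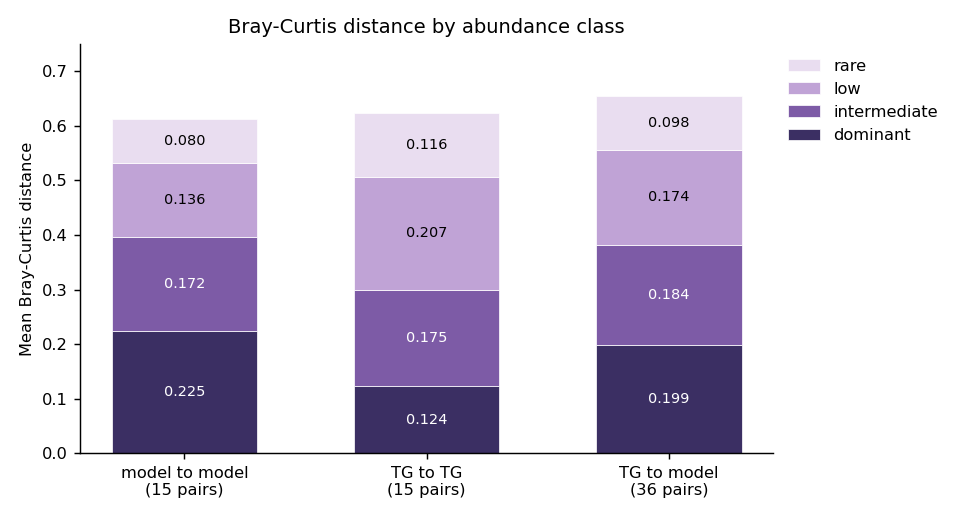
Mean Bray-Curtis distance within model (15 pairs), within TG (15 pairs) and between TG and model (36 pairs), stacked by the part from dominant, intermediate, low and rare features. Between groups the dominant part is 0.199, against 0.225 within model and 0.124 within TG.

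Neighbourhoods of single libraries give the same picture of overlap. In each group, 4 of 6 libraries had their nearest neighbour in their own group. The exceptions were model 3 with TG 5 and model 5 with TG 6. Set against control, the mean Bray-Curtis distance was 0.736 for TG over 36 pairs and 0.583 for model, and the dominant class supplied 37.3% and 40.5% of these. The distances to control share the control libraries and were not tested against each other here.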

How the data were processed

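The authors deposited a table of whole read counts per sequence feature, exported from BIOM per the file headers, after denoising and OTU clustering per the labels of the series. Denoiser, version and filters: not given in the sources used here. A deposited taxonomy table shares no identifiers with the counts and was not used. Counts were divided by library totals. Presence, prevalence and Pielou used 20 seeded rarefactions to 23894 counts. Values were tested over libraries with exact permutation tests (smallest two-sided p 0.00216) and adjusted by Benjamini-Hochberg within each family.

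Features reaching 10 counts in 4 or more of the 18 libraries were fitted over all 18 with edgeR 4.0.16 in R 4.3.3 (TMM, quasi-likelihood, adjusted p under 0.05). Named features were all edgeR calls, the 12 largest contributors to the between-group distance, each library's leader, and features recurrent in 1 group and scarce in the other. Groups, measures and lists were chosen with earlier results of these data known. Alternatives covered factors, filters, DESeq2 1.42.0, rarefaction, class bounds, left-out libraries and the replicate block. Procedures were tested on simulated data. Shares and permutations were computed in Python 3.11.15 (scipy 1.17.1, numpy 2.4.6; pandas 2.3.3), with figures by matplotlib 3.10.9. Amplified reads are not independent molecules, so limits on 0 counts cover counting error only.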

Additional observations from a re-analysis of the deposited data

Results flagged for a closer look

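Within each group of 6 libraries, the gap of the highest or lowest library to its neighbour was compared with the range. Of 65 sets of values examined, 20 had such a library, where chance flags about 1 in 20. That rate does not apply to features whose choice can favour such a gap. Features 21, 22 and 47 in TG and 110, 194 and 204 in model were named because they occurred in 1 library of a group. Features 13, 23 and 42 were named because they led a library. Features 2, 14, 19, 20 and 24 were named, among other rules for feature 2, for a large part of the between-group distance. The rate also assumes normally distributed values, which shares need not be. Features of a set also move together, so the 20 flags are not independent. TG 5 was lowest in TG for low features (7.48% of counts), rare features (2.79%) and features at equal depth (271). It was highest in TG for feature 2 (3.75%), feature 21 (0.126%), feature 22 (0.138%) and feature 47 (0.254%). TG 4 was highest for feature 23 (0.950%) and feature 24 (0.857%), and TG 2 for feature 42 (2.06%). Model 5 was highest in model for feature 13 (6.03%), feature 14 (5.67%), feature 19 (4.80%), feature 20 (5.01%), feature 42 (1.32%), feature 110 (0.122%) and feature 194 (0.448%). Model 1 was highest for feature 23 (8.67%) and feature 24 (8.06%), and model 4 for feature 204 (0.102%).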

How the results depend on the processing

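No pairing by replicate number was visible: same-numbered TG and model libraries correlated at -0.306 to 0.133 and 1 of 6 correlated best with its own number. Such correlations cannot show that the libraries are unpaired. With the replicate block (64 assignments, smallest p 0.0312) the dominance differences of -3.05, -17.5 and 29.7, Pielou 0.0779 and inverse Simpson 67.3 had p = 0.0625 by the exact test, and edgeR called 6 features.

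With 1 library left out in turn, the leading feature's difference ranged from -3.51 to -2.46, the leading 10 from -20.3 to -14.0, features for 50% of counts from 22.9 to 36.9, Pielou from 0.0605 to 0.0909 and inverse Simpson from 50.8 to 81.6. Class shares ranged from -24.8 to -16.0 (dominant), 5.27 to 7.86 (intermediate), 7.09 to 13.4 (low) and 2.35 to 5.47 (rare). The Bray-Curtis excess ranged from 0.0201 to 0.0816 (all), 0.0143 to 0.0526 (dominant) and 0.00494 to 0.0244 (intermediate). Signs changed for the excess of Jaccard (-0.00345 to 0.00754) and nestedness (-0.0104 to 0.00719) and for the within-group differences of Bray-Curtis (-0.0214 to 0.0875) and Jaccard (-0.0135 to 0.000654), none of which passed. edgeR calls ranged from 0 to 7. Read at 5 libraries, with presence in 4 counted as recurrent, the difference in recurrent and scarce features ranged from 4 to 19.4. It was 1 with all libraries and the stricter rule.

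The next 2 settings, summing into sets and the fits with the 431 features kept were chosen after seeing the data. Without model 1, model 3 and TG 5 the dominance values were -1.93, -11.4, 29.9, 0.0568 and 68.1, with fewer libraries, and Jaccard and nestedness excess turned to 0.000901 and 0.000474. Without the called features they were -2.49, -13.1, 17.8, 0.0541 and 46.9. Summed into sets, the leading 10 differed by -20.1. edgeR called 4 of 324 features in TG and model alone. With the 431 features kept, it called 0 there, 0 without TG 1, 2, 4 or 6 or model 4, and 2 without model 2, 3 or 6 or control 6; RLE gave 0 and DESeq2 2 calls. Leaving out features seen in 1 of the 18 libraries, with classes set anew, gave an intermediate class difference of 10.2 (adjusted p = 0.0173, exact permutation test). The difference in single-library features was then -51.95, the Jaccard excess 0.00349 and the within-group Bray-Curtis difference -0.0141. Square roots turned the latter to -0.00516. Classes by highest share gave -0.000448 for the low excess and -0.261 for the rare share. The causes were not tested.

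Depth limits presence: below 3 counts, a share of 0.0126% in the shallowest library, absence of a feature is not shown.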
